A study of Homo sapiens with 12 samples.

Results

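The response to olaparib was followed in BT549 cells in which 2 subunits of the AP-1 transcription factor had been lowered, by comparing 3 libraries of cells given siRNA pools against FOSL1 and JUN plus olaparib with 3 libraries of cells given the same siRNAs plus the solvent DMSO. These 6 libraries were taken from 12, and every gene with more than 1 CPM (a gene's count relative to the total of its library) in at least 3 of the 12 libraries was kept, which gave 12118 of 27046 genes. The other 6 libraries carried a non-targeting siRNA pool, 3 with olaparib and 3 with DMSO, and are set beside the knockdown cells below as control cells. All 12 came from BT549, an established triple-negative breast cancer line, and treatment lasted 48 h in each group. Both pools were commercial mixtures of several siRNAs per target, and every group had been transfected, so that no library came from untransfected cells. The labels do not say whether libraries of 1 group came from separate cultures, so p-values measure the spread between these libraries, which may be technical. Neither the olaparib dose nor the amount of siRNA is given in the sources used here.

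Olaparib blocks PARP1 and PARP2, enzymes that mark DNA strand breaks with poly(ADP-ribose), and holds them on DNA, so that replication forks meet lesions that are then repaired by homologous recombination. AP-1 is a family of dimers of FOS and JUN proteins. FOSL1 encodes FRA-1, a FOS family member that pairs with JUN and is abundant in mesenchymal, triple-negative breast cancer cells, where its dimers act on genes of invasion, growth factor signalling and matrix.

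In knockdown cells olaparib changed 5819 of the 12118 genes tested (48%). Of these, 2917 genes rose (24.1% of those tested) and 2902 fell (23.9%) in edgeR's quasi-likelihood test at an adjusted p under 0.05. Most changes were small, since 4484 of the 5819 changed genes (77.1%) differed by less than 1.5-fold. At least 2-fold changes were fewer, with 132 genes up (1.09%) and 161 down (1.33%), or 293 in all (2.42%). The olaparib and DMSO libraries did not overlap in 6195 genes (51.1%). This even split of rises and falls depends on the scaling: with library totals alone, in place of TMM factors that balance the libraries' composition, 2339 genes rose and 3645 fell, because the log2 fold changes all shifted by -0.053 in knockdown cells and by -0.1 in control cells. CPM is a relative measure, so fewer cells of a type and less RNA per cell cannot be told apart in such bulk libraries. The counts of rises, falls and genes without overlap below are to be read beside the shares of all genes given here.

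The 6 libraries of the knockdown arm held between 13763179 and 39715900 counts. Of the 7 markers of the mesenchymal BT549 state, all were tested, with 3 rises and 2 falls with olaparib in knockdown cells. ZEB1, FN1 and CD44 rose by 1.16, 0.40 and 0.38 on the log2 scale, and CAV1 and SPARC had -0.21 and -0.16. The intermediate filament gene VIM did not pass, with 2760, 2509 and 2438 CPM with olaparib, against 2385, 2398 and 2711 CPM with DMSO. Of 10 luminal breast markers 5 were below the filter: PGR was at 0 in all 12 libraries, and ESR1, EPCAM, FOXA1 and KRT19 were at or near 0. The other 5, CDH1, GATA3, KRT8, KRT18 and ERBB2, were tested, with 2 rises and 1 fall with olaparib in knockdown cells. In that arm they summed to 176 to 197 CPM with olaparib and 191 to 197 CPM with DMSO. Of 9 haematopoietic markers 7 were below the filter, with HBB at 0 in all 12 libraries, and of 7 endothelial markers 6, with CDH5, KDR and VWF at 0 in all 12. The 2 haematopoietic markers tested, CD14 and CD68, gave 1 rise in knockdown cells. There they summed to 21.8 to 26 CPM with olaparib and 18 to 22.9 CPM with DMSO. The endothelial marker that was tested, TEK, a receptor kinase, had 1.98, 2.70 and 2.83 CPM with olaparib, against 5.10, 4.26 and 4.50 CPM with DMSO, and was lower with olaparib (log2 -0.85).

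The siRNA targets come first. FOSL1 had 21.7, 22.3 and 19.2 CPM in knockdown cells given olaparib, against 29.04, 27.5 and 23.8 CPM in those given DMSO. In control cells the levels were 124, 136 and 117 CPM with olaparib, against 74.9, 71.4 and 68.5 CPM with DMSO. The 6 knockdown libraries stood below all 6 control libraries, and within the knockdown arm the olaparib libraries stood below the DMSO libraries. FOSL1 fell by 0.32 on the log2 scale with olaparib in knockdown cells (SE 0.085, adjusted p = 0.00397), against a rise of 0.81 in control cells, a difference between the arms of -1.14 (adjusted p = 1.89e-05). JUN, the partner of FRA-1, had 49.8, 40.7 and 35.9 CPM in knockdown cells given olaparib, against 56.2, 62.3 and 68.8 CPM in those given DMSO. In control cells the levels were 157, 172 and 161 CPM with olaparib, against 161, 174 and 155 CPM with DMSO. It too fell with olaparib in knockdown cells, by 0.58 (SE 0.10, adjusted p = 0.000336), whereas its log2 fold change was -0.0032 in control cells. The difference between the arms for JUN was -0.57 (adjusted p = 0.0268). It did not pass without knockdown olaparib replicate 2 (0.0794), knockdown DMSO replicate 2 (0.0699), any 1 of the 3 control olaparib libraries (0.0521, 0.074 and 0.051) or control DMSO replicate 1 or 3 (0.0625 and 0.0584), values that are adjusted p. It also did not pass without a filter on low counts (adjusted p = 0.0547) or with the replicate number as a block (adjusted p = 0.05955).

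Of the 7 FOS and JUN subunits, 3 rose and 2 fell in knockdown cells, and the 2 that fell were the siRNA targets. FOSL2, which encodes the related protein FRA-2, had 169.9, 169.6 and 159 CPM with olaparib, against 92.6, 99.97 and 90.5 CPM with DMSO, a rise of 0.82 (SE 0.052, adjusted p = 5.90e-10). FOS rose by 0.71 and FOSB, near 3.66 CPM with olaparib, by 0.48. The FOSB call was lost without olaparib replicate 2 (adjusted p = 0.116) and with thinned counts (adjusted p = 0.0798). JUNB and JUND did not pass. JUND had 119.7, 77.2 and 54.6 CPM with olaparib, against 64.6, 85.00 and 122 CPM with DMSO, and its libraries spread over the same range in both treatments. JUNB had 130.0, 98.6 and 67.5 CPM with olaparib, against 51.7, 70.6 and 80.9 CPM with DMSO, with overlap between the treatments, and passed without olaparib replicate 3 (adjusted p = 0.0104) and with DESeq2 (adjusted p = 0.0396). In control cells 5 of these 7 genes rose and 0 fell. Among 15 tested partners of the ATF, MAF and BATF groups 6 rose and 1 fell (2 without olaparib replicate 1), with MAFF at 0.56, ATF3, a stress-induced factor, at 0.50, and ATF5 at -0.85.

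**Figure D1:**
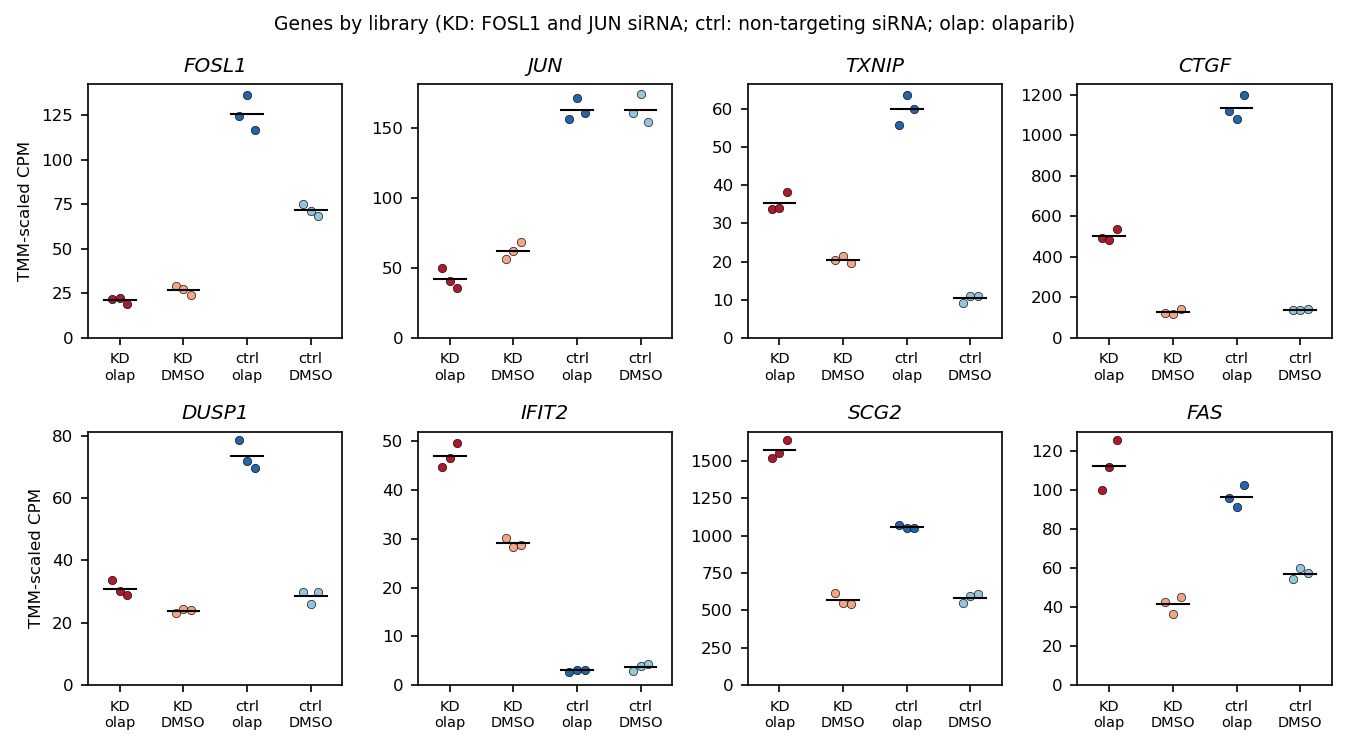
TMM-scaled CPM of 8 genes in each of the 12 libraries (points) with group means (lines), on axes that start at 0. FOSL1 and JUN were lowest in the knockdown libraries with olaparib, TXNIP, CTGF and DUSP1 were higher with olaparib in both arms but less far above DMSO in knockdown cells, and IFIT2, SCG2 and FAS stood highest in the knockdown libraries with olaparib.

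The largest rises with olaparib in knockdown cells included genes of secreted and contractile proteins. GDF15, a stress-induced cytokine, had 193, 134 and 111 CPM with olaparib, against 19.8, 27.8 and 30.9 CPM with DMSO. ACTA2, smooth muscle alpha-actin, had 785, 809 and 847 CPM with olaparib, against 161, 151 and 161 CPM with DMSO. CRISPLD2, a secreted protein, had 40.9, 41.1 and 41.7 CPM with olaparib, against 10.1, 10.2 and 10.3 CPM with DMSO. The largest rises and falls were picked among genes whose olaparib and DMSO libraries did not overlap. The log2 fold changes were 2.45 (SE 0.23) for GDF15, 2.37 (SE 0.068) for ACTA2 and 2.01 (SE 0.071) for CRISPLD2. The GDF15 libraries spread most, from 111 to 193 CPM with olaparib. CTGF, a matricellular protein, had 493, 480.1 and 537 CPM with olaparib, against 123, 118 and 141 CPM with DMSO, and IGFBP4, which binds insulin-like growth factors, had 197, 171 and 162 CPM with olaparib, against 50.9, 51.3 and 55.9 CPM with DMSO. NAMPT, the rate-limiting enzyme of NAD salvage, had 841, 878 and 993 CPM with olaparib, against 319.5, 287 and 333 CPM with DMSO. NAD is the substrate that PARP enzymes consume, and NAMPT rose 2.89-fold (log2 1.53, SE 0.066, adjusted p = 1.53e-11).

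SNAI2, which encodes the mesenchymal factor SLUG, had 38.4, 37.9 and 39.1 CPM with olaparib, against 12.9, 13.7 and 13.5 CPM with DMSO. SCG2, a secretory granule protein, had 1525, 1552 and 1642 CPM with olaparib, against 616, 550.2 and 543 CPM with DMSO. EPAS1, which encodes the hypoxia factor HIF-2 alpha, had 711, 692 and 665 CPM with olaparib, against 247, 263 and 242 CPM with DMSO. TUFT1, ACKR3, an atypical chemokine receptor, and ZNF93, a zinc finger repressor, rose by 1.59, 1.54 and 1.58 on the log2 scale. All 12 of these rises kept their call in each of the 21 fits compared, and 11 of the 12 genes also passed as higher at least 2-fold in control cells, SCG2 (log2 0.86) being the exception.

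The largest falls included regulators of glycolysis and autophagy. DEPP1, a FOXO target that acts on autophagy, had 6.36, 6.54 and 7.89 CPM with olaparib, against 33.9, 31.1 and 32.4 CPM with DMSO. TCF7, a transcription factor of Wnt signalling, had 4.69, 5.23 and 5.93 CPM with olaparib, against 18.8, 18.3 and 17.3 CPM with DMSO. PFKFB4, which sets the level of fructose-2,6-bisphosphate, had 14.9, 14.5 and 14.6 CPM with olaparib, against 45.7, 49.5 and 41.6 CPM with DMSO. In these genes, likewise picked for no overlap, the log2 fold changes were -2.24 (SE 0.087), -1.78 (SE 0.10) and -1.64 (SE 0.093). NOL3, an inhibitor of apoptosis, had 30.7, 26.6 and 23.5 CPM with olaparib, against 61.4, 71.3 and 68.2 CPM with DMSO, and SRSF2, a splicing factor, had 72.6, 65.8 and 61.6 CPM with olaparib, against 141, 146 and 162 CPM with DMSO. SLC6A6, the taurine transporter, had 49.3, 45.6 and 47.4 CPM with olaparib, against 113, 114 and 103 CPM with DMSO, and the sterol reductase TM7SF2 had 23.6, 21.3 and 19.01 CPM with olaparib, against 48.1, 49.03 and 48.6 CPM with DMSO. AHDC1, FUT11, FER1L4 and CRABP2, a retinoic acid binding protein, had log2 fold changes of -1.34, -1.28, -1.26 and -1.25. CTXN1 ranked among the 12 falls too (log2 -1.18), with a wide spread of 38.6, 23.8 and 13.5 CPM with olaparib, against 40.5, 59.1 and 70.4 CPM with DMSO, and its call was lost without olaparib replicate 2 (adjusted p = 0.0569) and in a fit of the 6 knockdown libraries alone (adjusted p = 0.088).

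**Figure D2:**
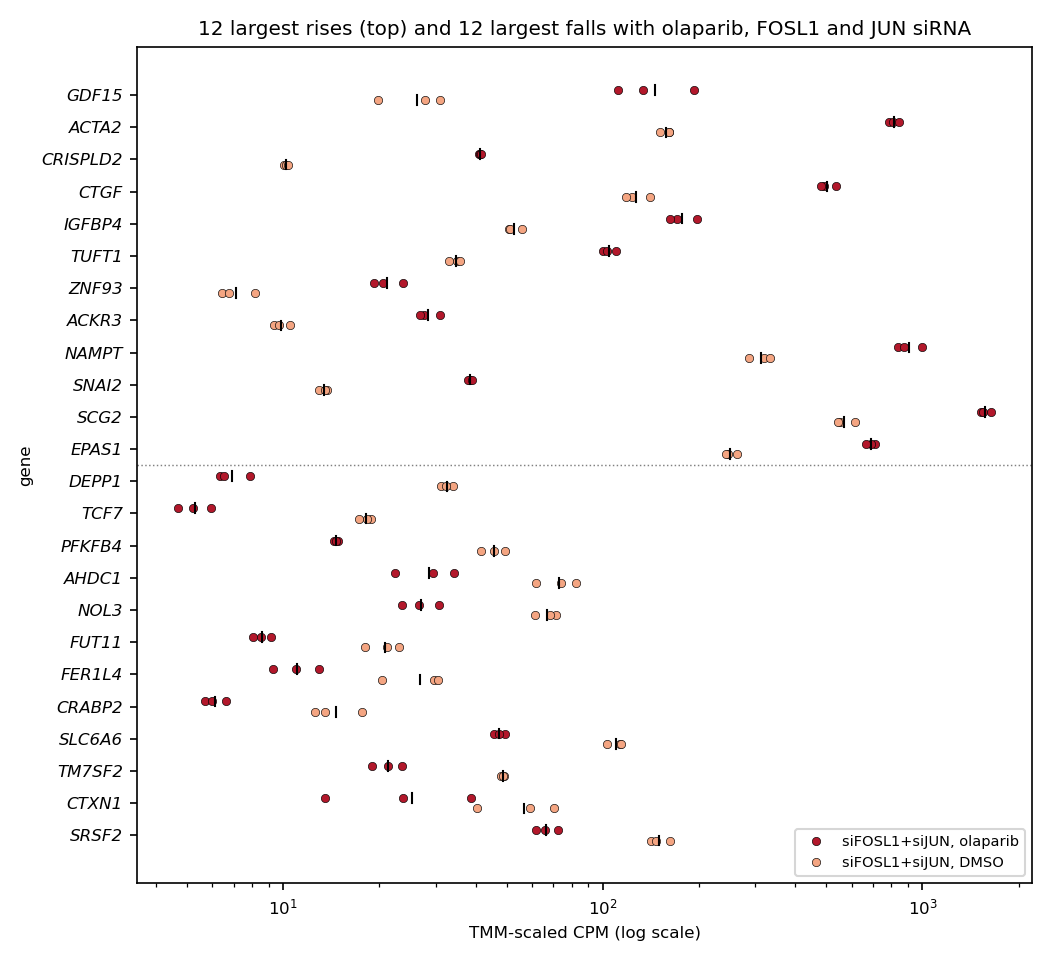
TMM-scaled CPM (log axis) in the 6 knockdown libraries for the 12 largest rises (above the dotted line) and the 12 largest falls, with each gene's olaparib libraries drawn above its DMSO libraries and short lines at the means. The 24 genes were picked among those whose treatments do not overlap, and CTXN1 and GDF15 show the widest spread.

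Genes of mitosis rose together. Of 81 tested genes in 3 lists (mitotic kinases and cyclins, spindle kinesins, kinetochore proteins), 72 rose (88.9%, beside 24.1% of all genes) and 0 fell (1 without DMSO replicate 3). Their median log2 fold change was 0.55, and that of all genes -0.01. Their summed level was 12150, 12480 and 12900 CPM with olaparib, against 8647, 8373 and 8356 CPM with DMSO. In control cells 50 of the 81 rose and 5 fell (median 0.29), at summed levels of 11130, 10960 and 11200 CPM with olaparib and 9209, 8620 and 8459 CPM with DMSO. The count of 72 stayed between 68 and 73 in every other fit compared.

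The promoters of these genes are known for the CHR element, which recruits the DREAM and MuvB complexes that restrict transcription to G2 and mitosis, placed near CCAAT boxes bound by NF-Y. Promoter windows of 250 bases upstream of each RefSeq transcription start (GRCh38.p14) were searched on both strands for the CHR element TTTGAA, for the CCAAT box and for the AP-1 site TGANTCA, none of which contains another. The rarer CHR form TTCGAA was counted with the usual one. CHR and CCAAT matches on either strand are in capitals. Shown 5′ to 3′ on the gene's strand are windows of the 3 largest mitotic rises among genes whose window holds both elements. They lie at chr11:28108157-28108406, minus strand, for KIF18A, at chr9:89310945-89311194, plus strand, for CKS2 and at chr5:138331805-138332054, minus strand, for CDC25C.
KIF18A: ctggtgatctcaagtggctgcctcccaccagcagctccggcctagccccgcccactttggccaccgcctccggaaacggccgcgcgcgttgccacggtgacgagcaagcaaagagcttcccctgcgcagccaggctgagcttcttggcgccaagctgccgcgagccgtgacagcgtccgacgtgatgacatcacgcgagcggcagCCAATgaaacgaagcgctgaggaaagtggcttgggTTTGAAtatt
CKS2: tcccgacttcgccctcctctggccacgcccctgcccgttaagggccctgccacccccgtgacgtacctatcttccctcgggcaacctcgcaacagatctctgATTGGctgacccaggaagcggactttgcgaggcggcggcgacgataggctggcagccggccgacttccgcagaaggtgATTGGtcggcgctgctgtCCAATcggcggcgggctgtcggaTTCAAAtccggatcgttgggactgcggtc
CDC25C: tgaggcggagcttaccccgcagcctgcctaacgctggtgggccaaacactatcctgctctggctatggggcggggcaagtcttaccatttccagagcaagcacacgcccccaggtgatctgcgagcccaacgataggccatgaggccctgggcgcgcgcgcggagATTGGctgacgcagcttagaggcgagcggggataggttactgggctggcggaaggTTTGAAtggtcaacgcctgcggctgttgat
By that choice each window holds both elements, and in each a CHR lies near the start with 1 or more CCAAT boxes upstream of it. Of the 81 genes, 68 matched a window, and of their 85 windows 41.2% held a CHR, 69.4% a CCAAT box and 36.5% both, against 10.2%, 33.3% and 3.87% of the 14330 windows of 9856 tested genes. The AP-1 site was in 0 of the 85 mitotic windows and in 4.17% of all of them. A match is a description of these letters, and AP-1 also binds sites far from promoters.

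Every one of the 26 mitotic kinases, cyclins and phosphatases rose in knockdown cells, with log2 fold changes between 0.40 and 1.04. NEK2, a centrosomal kinase, had 83.8, 87.3 and 88.2 CPM with olaparib, against 43.5, 40.6 and 42.2 CPM with DMSO. CKS2, a CDK subunit, had 373, 381 and 427 CPM with olaparib, against 206, 198 and 213 CPM with DMSO, and CDC25C, the phosphatase that activates CDK1, had 75.8, 79.1 and 75.2 CPM with olaparib, against 42.8, 40.2 and 38.1 CPM with DMSO. The groups did not overlap for these 3 genes, which rose by 1.04, 0.94 and 0.93 on the log2 scale (SE 0.071, 0.054 and 0.074). CDK1 itself, the kinase that drives entry into mitosis, had 215, 224 and 254 CPM with olaparib, against 122, 114 and 128 CPM with DMSO and rose by 0.93. The spindle checkpoint kinase TTK rose by 0.88, and TPX2, which activates Aurora A, by 0.73.

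Among 26 spindle kinesins and microtubule regulators 23 rose and 0 fell (median 0.61), and 16 rose and 2 fell in control cells (median 0.28). KIF18A, which limits chromosome movement at the metaphase plate, had 47.2, 47.1 and 53.2 CPM with olaparib, against 25.9, 23.4 and 27.3 CPM with DMSO, and the depolymerase KIF2C had 305, 320.0 and 308 CPM with olaparib, against 179.9, 171 and 162 CPM with DMSO. Both rose, by 0.94 and 0.87, without overlap between treatments. Of 29 kinetochore and centromere proteins 23 rose and 0 fell (median 0.43), led by SGO1, a protector of centromeric cohesion, at 0.94, HJURP, the chaperone of CENP-A, at 0.81 and MAD2L1, a checkpoint protein, at 0.77. CENPE, a kinetochore motor of this list, did not pass, with 62.98, 67.2 and 84.5 CPM with olaparib, against 68.3, 63.6 and 66.9 CPM with DMSO. Among 24 genes of condensin, cohesin and chromosome structure 16 rose and 1 fell (2 without olaparib replicate 3). TOP2A, the topoisomerase that untangles chromosomes, had 1342, 1447 and 1617 CPM with olaparib, against 699.6, 669 and 704 CPM with DMSO (log2 1.09, SE 0.063). The gene that fell in this list was STAG1, a cohesin subunit, at -0.66.

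The proliferation marker MKI67 did not pass, with 291, 300.1 and 306 CPM with olaparib, against 282, 374 and 229.9 CPM with DMSO, and its DMSO libraries lay on both sides of the olaparib libraries. It passed as higher without DMSO replicate 2 (adjusted p = 0.0383). Of 18 genes of the anaphase promoting complex and mitotic exit 6 rose and 3 fell, with the ubiquitin carrier UBE2C at 0.73 and the scaffold subunit ANAPC2 at -0.64. The 3 falls became 5 without olaparib replicate 3.

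Of 26 genes of origin licensing and firing 11 rose and 7 fell. The licensing factor CDT1 had 83.1, 68.5 and 53.4 CPM with olaparib, against 28.7, 38.2 and 40.7 CPM with DMSO and rose by 0.92, and ORC1, of the origin recognition complex, rose by 0.52. Of the 6 subunits MCM2 to MCM7 of the replicative helicase 5 fell, by 0.20 for MCM2, 0.36 for MCM3, 0.25 for MCM4, 0.20 for MCM5 and 0.58 for MCM6, and MCM7 did not pass (log2 0.08, adjusted p = 0.214). The MCM5 call was lost without olaparib replicate 2 or 3 or DMSO replicate 2 (adjusted p = 0.051, 0.0601 and 0.093). MCM6 had 98.7, 98.4 and 102 CPM with olaparib, against 157, 143 and 148 CPM with DMSO. At the fork, 14 of 29 genes rose and 4 fell, with the clamp loader subunit RFC3 at 0.76, the helicase-nuclease DNA2 at 0.50 and TIMELESS, of the fork protection complex, at 0.40. The 4 falls became 1 without DMSO replicate 1, and 2 without olaparib replicate 1 or DMSO replicate 2. Of 23 nucleotide synthesis genes 11 rose and 4 fell, including both subunits of ribonucleotide reductase, RRM1 (0.42) and RRM2 (0.56). Those 4 falls were 1 or 2 without any 1 of the 3 DMSO libraries, of olaparib replicates 2 and 3 or of control olaparib replicate 1.

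In the G1 list 12 of 29 genes rose and 7 fell. Both E-type cyclins fell, CCNE1 with 13.5, 13.1 and 12.4 CPM with olaparib, against 24.8, 18.01 and 19.5 CPM with DMSO and CCNE2 with 24.9, 27.3 and 30.9 CPM with olaparib, against 40.6, 36.99 and 43.6 CPM with DMSO. The DREAM and MuvB subunits LIN54 and LIN9 rose by 0.87 and 0.70, the repressor E2F8 by 0.69, and the CDK inhibitors CDKN1B and CDKN1A by 0.56 and 0.33. Of 25 replication-dependent histones, whose copies share sequence so that their counts are uncertain, 11 were tested. The others were below the filter, among them HIST1H1B, HIST1H3B and HIST1H4C, under 1 CPM in all 12 libraries, so most of the list was not measured. The 11 gave 0 rises and 2 falls, HIST1H1C (-0.29) and HIST1H2BK (-0.21), and 1 fall without olaparib replicate 2 or DMSO replicate 1 or 2.

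Of 37 homologous recombination genes 23 rose and 1 fell (median 0.32), and in control cells 7 rose and 8 fell (median 0.04). RAD54B, a DNA-dependent motor protein, had 57.9, 57.6 and 68.01 CPM with olaparib, against 37.8, 30.7 and 36.1 CPM with DMSO. EME1, a subunit of a junction-cutting nuclease, had 15.1, 14.2 and 12.8 CPM with olaparib, against 8.45, 8.32 and 8.24 CPM with DMSO. RBBP8, which encodes CtIP and starts end resection, had 102, 108 and 123 CPM with olaparib, against 70.02, 66.5 and 70.4 CPM with DMSO. Each rose, by 0.81, 0.76 and 0.69 (SE 0.079, 0.096 and 0.064), with no overlap between treatments. BRCA1 had 45.1, 47.05 and 51.8 CPM with olaparib, against 37.8, 41.4 and 36.3 CPM with DMSO, a rise of 0.32. BRCA2, a mediator of strand exchange, had 10.99, 9.79 and 10.2 CPM with olaparib, against 7.12, 9.54 and 7.90 CPM with DMSO and a log2 fold change of 0.32 (adjusted p = 0.0226), a call lost without olaparib replicate 1 or DMSO replicate 1 or 3 (adjusted p = 0.0647, 0.088 and 0.0827). It was also lost with library totals, with thinned counts and in a fit of the 6 knockdown libraries alone (adjusted p = 0.054, 0.0793 and 0.0531). The single fall became 3 without olaparib replicate 3, and 2 without DMSO replicate 3.

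Other repair pathways moved less uniformly. Of 17 Fanconi anaemia genes 9 rose and 3 fell, with FANCD2, the protein that is ubiquitinated at crosslinks, at 58.4, 55.2 and 59.6 CPM with olaparib, against 39.3, 37.2 and 38.4 CPM with DMSO (log2 0.59), and FANCL, the ligase that modifies it, at 8.40, 8.19 and 8.02 CPM with olaparib, against 13.8, 12.4 and 13.6 CPM with DMSO (log2 -0.69). Among 19 checkpoint genes 8 rose and 3 fell (5 without DMSO replicate 1), with the kinases CHEK2 at 0.88 and WEE1 at 0.54 and ETAA1, an activator of ATR, at -0.59. Of 10 translesion synthesis genes 6 rose and 1 fell, led by the ubiquitin ligase RAD18 (0.75), and the fall did not pass without olaparib replicate 1 or 2, DMSO replicate 1 or 3, control olaparib replicate 1 or 3 or any control DMSO library. End joining gave 4 rises and 4 falls of 15, with POLQ, the polymerase of theta-mediated joining, at 49.3, 53.9 and 52.7 CPM with olaparib, against 30.5, 34.8 and 29.2 CPM with DMSO (log2 0.73) and the ligase LIG4 at -0.62. Those 4 falls were 2 without any 1 of the 3 knockdown olaparib libraries or of control olaparib replicates 1 and 2. The end joining shares, 26.7% each way, were close to the 24.1% up and 23.9% down of all genes. Mismatch and nucleotide excision repair gave 7 rises, 4 without olaparib replicate 2, and 3 falls of 21.

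The drug's own targets shifted little. PARP1 had 406, 404 and 394 CPM with olaparib, against 472, 465 and 434 CPM with DMSO and fell by 0.19 (adjusted p = 0.00173), and PARP2 had 48.97, 47.4 and 48.8 CPM with olaparib, against 41.7, 38.95 and 36.8 CPM with DMSO and rose by 0.31 (adjusted p = 0.000317). Over the PARP family and base excision repair 9 of 35 genes rose, a share close to the 24.1% of all genes, and 12 fell, a share above the 23.9% of all genes. NEIL3, a glycosylase active at replication, rose by 0.93, and PARP4, the vault-associated member, had a log2 fold change of -0.61.

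Of 28 targets of p53 10 rose and 6 fell. Beside GDF15, the death receptor FAS rose, with 99.8, 112 and 125 CPM with olaparib, against 42.5, 36.2 and 45.1 CPM with DMSO (log2 1.44, SE 0.087), and the nuclease AEN rose by 0.54. MDM2, the ligase that p53 induces, had 36.7, 41.5 and 47.7 CPM with olaparib, against 35.5, 41.2 and 41.9 CPM with DMSO and did not pass (adjusted p = 0.477). The 6 falls were 2 without olaparib replicate 2 and 3 without DMSO replicate 3. In the BCL2 family 4 of 16 genes rose and 6 fell, with PMAIP1, which encodes NOXA, at 0.65, BCL2L11, which encodes BIM, at 0.38, and BMF and BNIP3, related pro-apoptotic proteins, at -0.64 and -0.97. Death receptors and caspases gave 5 rises and 7 falls of 20 (3 and 4 without olaparib replicate 2), among the falls the decoy receptor TNFRSF10D (-0.69) and the adaptor FADD (-0.44). Rises were 25% of the BCL2 list and of the death receptor list, close to the 24.1% of all genes.

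**Figure D3:**
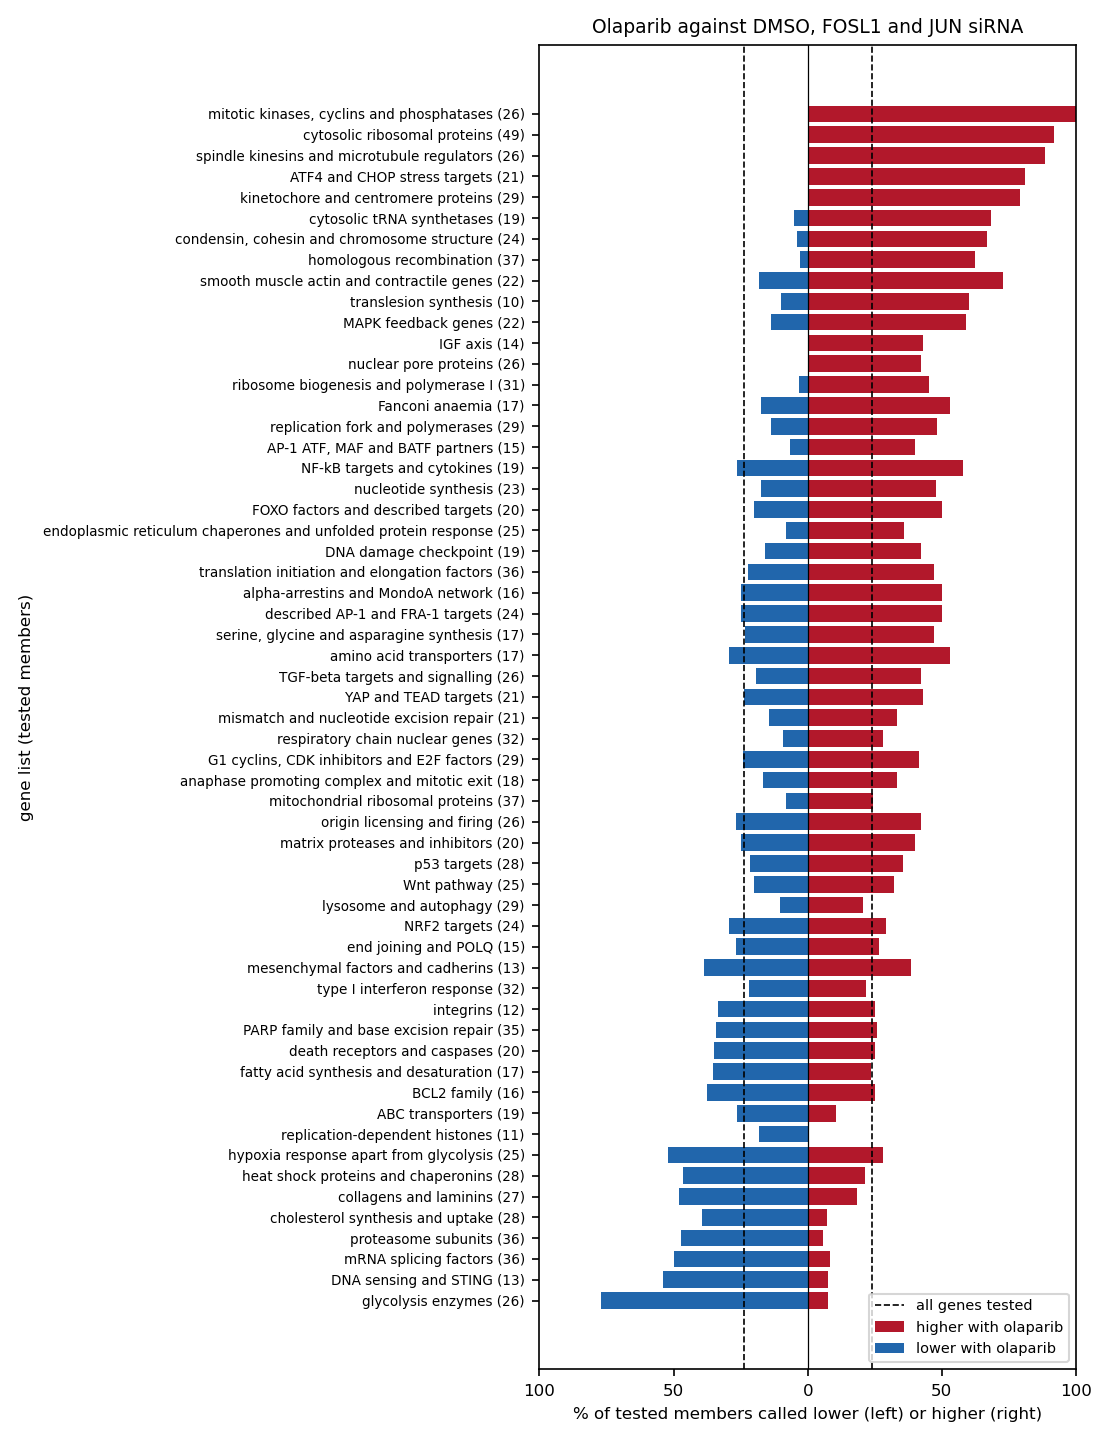
Percent of tested members called higher (right, red) or lower (left, blue) with olaparib in knockdown cells for each gene list with at least 10 tested members, and the same over all genes tested (dashed lines, 24.1% and 23.9%). Mitotic, ribosomal protein and stress lists lie at the top, and the glycolysis list, which also holds transporters, at the bottom with 20 of 26 lower.

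Of 21 targets of ATF4 and CHOP, the transcription factors of the integrated stress response, 17 rose and 0 fell (median 0.45). DDIT3, which encodes CHOP, had 72.9, 73.2 and 71.04 CPM with olaparib, against 40.3, 35.8 and 35.9 CPM with DMSO. PPP1R15A, the phosphatase subunit that ends the response, had 66.1, 62.6 and 53.2 CPM with olaparib, against 33.8, 30.4 and 32.97 CPM with DMSO. TRIB3, a pseudokinase induced by CHOP, had 143, 128 and 117 CPM with olaparib, against 75.6, 88.2 and 84.1 CPM with DMSO. The treatments did not overlap, with log2 fold changes of 0.96, 0.91 and 0.65 (SE 0.058, 0.075 and 0.074). ATF4 mRNA itself had 351, 339 and 323 CPM with olaparib, against 281, 278 and 255 CPM with DMSO, a rise of 0.32 (adjusted p = 3.00e-05).

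Genes of amino acid synthesis, several of them known ATF4 targets, were divided. Among 17 genes of serine, glycine and asparagine synthesis 8 rose and 4 fell. GOT1, which makes aspartate, had 189, 202 and 199.7 CPM with olaparib, against 107, 102 and 102 CPM with DMSO, ASNS, asparagine synthetase, had 249, 271 and 277 CPM with olaparib, against 169.9, 162 and 163 CPM with DMSO, and PHGDH, the first enzyme of serine synthesis, had 198, 195 and 189 CPM with olaparib, against 122, 132 and 121 CPM with DMSO. These rises were 0.93, 0.69 and 0.63 on the log2 scale, and PSAT1, the next enzyme after PHGDH, rose by 0.42. The promoter windows of GOT1 and of CEBPG, a C/EBP factor that pairs with ATF4 (82.3, 86.5 and 92.3 CPM with olaparib, against 64.9, 59.6 and 66.4 CPM with DMSO), hold the C/EBP-ATF element TGATGNAA, shown in capitals on either strand. Both genes were picked among those whose window holds the element. The windows lie at chr10:99430625-99430874, minus strand, for GOT1 and at chr19:33373863-33374112, plus strand, for CEBPG.
GOT1: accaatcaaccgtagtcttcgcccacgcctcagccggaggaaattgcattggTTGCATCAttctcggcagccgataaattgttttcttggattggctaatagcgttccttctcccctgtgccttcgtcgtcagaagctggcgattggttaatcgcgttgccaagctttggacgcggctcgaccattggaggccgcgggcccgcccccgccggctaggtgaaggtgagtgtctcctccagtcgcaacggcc
CEBPG: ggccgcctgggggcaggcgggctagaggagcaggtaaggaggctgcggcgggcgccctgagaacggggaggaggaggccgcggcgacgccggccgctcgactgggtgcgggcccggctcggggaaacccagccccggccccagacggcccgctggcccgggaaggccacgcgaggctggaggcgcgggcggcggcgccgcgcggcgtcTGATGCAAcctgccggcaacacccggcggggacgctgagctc
Of the 14 windows of the serine, glycine and asparagine genes 28.6% held the element, and of the 26 windows of the ATF4 and CHOP targets 15.4%, against 1.63% of all 14330 windows. The 14 windows came from 10 genes and the 26 from 17. Both lists hold known ATF4 targets, so the shares describe the lists and not the response to olaparib.

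Transporters and charging enzymes of amino acids followed in part. Of 17 amino acid transporters 9 rose and 5 fell, with SLC7A5, which imports large neutral amino acids, at 429, 398 and 357 CPM with olaparib, against 221, 256 and 252 CPM with DMSO (log2 0.70) and SLC7A11, the cystine importer, at 73.1, 80.6 and 92.8 CPM with olaparib, against 48.6, 54.5 and 59.3 CPM with DMSO (log2 0.59). SLC1A3, a glutamate transporter, had a log2 fold change of -1.05. Of 19 cytosolic tRNA synthetases 13 rose and 1 fell (median 0.26), among them SARS (0.40) and AARS (0.40). Endoplasmic reticulum chaperones and unfolded protein response genes gave 9 rises and 2 falls of 25 with small sizes, such as XBP1 at 0.51 and HSPA5, the lumenal chaperone BiP, at 0.20. The 2 falls were 0 without olaparib replicate 2, DMSO replicate 2 or control olaparib replicate 1, and 1 without olaparib replicate 1 or 3, control olaparib replicate 2 or control DMSO replicate 2.

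Of 26 glycolysis enzymes and transporters 20 fell and 2 rose (median -0.31), and in control cells 14 fell and 2 rose (median -0.14). PGK1, phosphoglycerate kinase, had 722, 758 and 763 CPM with olaparib, against 1256, 1188 and 1194 CPM with DMSO. ALDOC, an aldolase, had 138, 137 and 132 CPM with olaparib, against 269.8, 266 and 246 CPM with DMSO, and SLC16A3, the lactate exporter, had 82.9, 67.4 and 58.9 CPM with olaparib, against 130.1, 152 and 159.8 CPM with DMSO. The olaparib libraries lay below the DMSO libraries for all 3 genes, which had log2 fold changes of -0.70, -0.94 and -1.08 (SE 0.045, 0.053 and 0.10). The glucose transporter SLC2A1 and the kinase PDK1, which closes the mitochondrial entry of pyruvate, had -0.71 and -0.62, and LDHA had -0.24. SLC2A3, the neuronal glucose transporter, was the largest exception, with 4.82, 4.76 and 4.52 CPM with olaparib, against 1.26, 0.881 and 0.859 CPM with DMSO, a low level in which it rose by 2.29. Of 25 genes of the hypoxia response, SLC2A1 again among them, 13 fell and 7 rose. NDRG1 had 93.7, 91.1 and 71.6 CPM with olaparib, against 188, 200.2 and 183 CPM with DMSO, EGLN3, an oxygen-sensing hydroxylase, had 3.58, 3.23 and 4.25 CPM with olaparib, against 8.03, 7.39 and 9.55 CPM with DMSO, and EPAS1 was the largest rise.

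Of 36 splicing factors 18 fell and 3 rose (median -0.17), with SRSF5 at -0.73, SRSF1 at -0.65 and HNRNPM at -0.53 beside SRSF2. Proteasome subunits gave 17 falls and 2 rises of 36, with PSMD11 the farthest from 0 (-0.36). The 2 proteasome rises were 0 without olaparib replicate 2 or 3, DMSO replicate 1 or 2 or control olaparib replicate 3, and 1 without DMSO replicate 3. Heat shock proteins gave 13 falls and 6 rises of 28. The small heat shock protein HSPB1 had 158, 131 and 105 CPM with olaparib, against 214, 248 and 278 CPM with DMSO, the inducible HSPA1A, whose reads cannot be told from those of its near-identical copy, had 5.37, 4.58 and 4.58 CPM with olaparib, against 7.33, 9.40 and 9.21 CPM with DMSO, and HSP90AA1 went the other way with 5494, 5734 and 6221 CPM with olaparib, against 3751, 3343 and 3479 CPM with DMSO. HSPB1 and HSPA1A had log2 fold changes of -0.91 and -0.86, and HSP90AA1 of 0.72, with no overlap between treatments for any of the 3. Cholesterol genes gave 11 falls and 2 rises of 28, with HMGCS1, an early enzyme, at -0.44 and the lysosomal exporter NPC1 at 0.83.

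Cytosolic ribosomal proteins gave 45 rises and 0 falls of 49, by small amounts (median 0.21), with RPL12 at 1136, 1154 and 1146 CPM with olaparib, against 899, 841 and 789.9 CPM with DMSO (log2 0.44). Pseudogenes of these genes could share their reads. Ribosome biogenesis gave 14 rises and 1 fall of 31 (2 falls without DMSO replicate 3), and translation factors 17 rises and 8 falls of 36, among them EIF4A2, a helicase of initiation, at 0.76 and EIF5 at -0.50. Nuclear pore proteins gave 11 rises and 0 falls of 26 (2 falls without DMSO replicate 3). Mitochondrial ribosomal proteins gave 9 rises and 3 falls of 37 (5 or 7 falls without olaparib replicates 2 or 1, and 5 without DMSO replicate 3). Their share of rises, 24.3%, was close to the 24.1% of all genes. Nuclear genes of the respiratory chain gave 9 rises and 3 falls of 32, and 3, 5, 4 and 3 rises without olaparib replicate 2, olaparib replicate 3, DMSO replicate 2 and DMSO replicate 3. With library totals alone the counts of the mitochondrial lists turned round, to 6 rises and 11 falls for mitochondrial ribosomal proteins and 2 rises and 5 falls for the respiratory chain.

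Contractile genes gave 16 rises and 4 falls of 22 (median 0.36). Beside ACTA2, CALD1, which encodes the actin-binding caldesmon, had 165, 167 and 185 CPM with olaparib, against 77.00, 72.6 and 80.1 CPM with DMSO, TAGLN, transgelin, had 35.3, 34.3 and 40.2 CPM with olaparib, against 19.5, 17.4 and 18.3 CPM with DMSO, and SRF, the factor that drives this gene set, had 69.96, 63.7 and 60.1 CPM with olaparib, against 38.95, 42.1 and 40.8 CPM with DMSO. All 3 rose without overlap, by 1.17, 0.99 and 0.67 (SE 0.06, 0.16 and 0.066). The 4 falls were 2 without olaparib replicate 1 or 2, DMSO replicate 2 or control olaparib replicate 1 or 2. Targets of YAP and TEAD, which respond to cell tension, gave 9 rises and 5 falls of 21. CYR61, a relative of CTGF, had 779.9, 712 and 735 CPM with olaparib, against 300.0, 294 and 306 CPM with DMSO and rose by 1.31.

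The window of SRF carries CArG boxes, the SRF binding element, and that of CTGF carries the TEAD site GGAATG. Both genes were picked among those whose window holds the element. The windows are shown with these elements in capitals, SRF at chr6:43171019-43171268, plus strand, and CTGF at chr6:131951373-131951622, minus strand.
SRF: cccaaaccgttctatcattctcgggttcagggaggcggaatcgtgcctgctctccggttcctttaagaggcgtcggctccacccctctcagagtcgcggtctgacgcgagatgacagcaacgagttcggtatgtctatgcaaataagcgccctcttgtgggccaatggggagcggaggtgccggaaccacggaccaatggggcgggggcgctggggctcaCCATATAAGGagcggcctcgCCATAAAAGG
CTGF: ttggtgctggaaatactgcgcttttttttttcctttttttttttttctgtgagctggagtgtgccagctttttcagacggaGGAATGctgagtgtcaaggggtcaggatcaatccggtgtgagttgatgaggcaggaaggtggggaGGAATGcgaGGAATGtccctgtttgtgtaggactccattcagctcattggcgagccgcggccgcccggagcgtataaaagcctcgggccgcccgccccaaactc
CArG boxes were in 26.3% of the 38 windows of the contractile list, against 1.03% of all 14330 windows, and TEAD sites in 35% of the 20 windows of the YAP and TEAD list, against 9.62%. The 38 windows came from 19 genes and the 20 from 15. Both lists gather genes tied to these factors, so the shares describe the lists and not the response to olaparib.

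In the TGF-beta list 11 of 26 genes rose and 5 fell, led by FST, which binds activin, at 16.98, 13.8 and 14.02 CPM with olaparib, against 6.70, 6.21 and 6.01 CPM with DMSO and ID1, an inhibitor of differentiation, at 395, 311 and 260.4 CPM with olaparib, against 124, 153 and 176 CPM with DMSO. Collagens and laminins gave 13 falls and 5 rises of 27, with COL6A3, a microfibril chain, at 1.81 and the basement membrane collagens COL4A6 at -0.97 and COL4A1 at 0.81 in opposite directions. Integrins gave 3 rises and 4 falls of 12 (25% and 33.3%, beside 24.1% and 23.9% of all genes), with ITGB4 at 0.91 and ITGAV at -0.33. Matrix proteases and inhibitors gave 8 rises and 5 falls of 20 (3 falls without olaparib replicate 2), with the inhibitor TIMP3 at 1.14 and MMP17 at -0.90. Mesenchymal factors gave 5 rises and 5 falls of 13, the repressor ZEB1 with 199, 216 and 245 CPM with olaparib, against 95.5, 98.1 and 101 CPM with DMSO (log2 1.16) and S100A4 at -0.59. Those 5 falls were 3 without olaparib replicate 1 or 2 or DMSO replicate 1 or 3. Of 17 epithelial genes 5 were tested, with 3 rises (1 without olaparib replicate 2) and 1 fall, which did not pass without olaparib replicate 2 or 3, any knockdown DMSO library, any control olaparib library or control DMSO replicate 1.

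Of 22 ERK pathway feedback genes 13 rose and 3 fell (median 0.37), and in control cells 15 rose and 2 fell (median 0.78). DUSP4, a MAP kinase phosphatase, had 234, 218 and 210.1 CPM with olaparib, against 86.3, 89.7 and 95.9 CPM with DMSO. MYC had 247, 238 and 229 CPM with olaparib, against 107, 109 and 104 CPM with DMSO, and SPRY2, an inhibitor of receptor signalling, had 177, 177 and 183 CPM with olaparib, against 106, 106 and 109 CPM with DMSO. None of these overlapped between treatments, and the rises were 1.28, 1.16 and 0.74 (SE 0.054, 0.05 and 0.048). Genes described as AP-1 or FRA-1 targets gave 12 rises and 6 falls of 24. LIF, a cytokine, had 15.01, 13.8 and 16.2 CPM with olaparib, against 5.72, 6.26 and 5.12 CPM with DMSO, IL6 had 5.74, 5.56 and 7.14 CPM with olaparib, against 2.93, 2.74 and 2.78 CPM with DMSO, and the factor HMGA2 had 4.20, 5.31 and 5.12 CPM with olaparib, against 8.59, 7.54 and 8.76 CPM with DMSO. The 2 cytokines rose by 1.39 and 1.10, and HMGA2 fell by 0.74. Of 7 tested EGFR family ligands and receptors 4 rose and 0 fell, with AREG, amphiregulin, rising by 1.65 at a level near the filter (1.79, 1.28 and 1.62 CPM with olaparib, against 0.419, 0.587 and 0.412 CPM with DMSO).

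The alpha-arrestin TXNIP, which restrains glucose uptake, had 33.9, 34.1 and 38.4 CPM with olaparib, against 20.3, 21.5 and 19.6 CPM with DMSO and rose by 0.79 (SE 0.079), within a MondoA network list of 8 rises and 4 falls of 16. FOXO targets gave 10 rises and 4 falls of 20 (2 falls without olaparib replicate 2 or DMSO replicate 3), with BCL6 at 1.18 and KLF9 at 0.75 opposite to DEPP1. In the IGF axis 6 of 14 rose and 0 fell (1 without olaparib replicate 1 or DMSO replicate 3), with the receptor IGF1R at 0.76 and the adaptor IRS2 at 1.02. Wnt genes gave 8 rises and 5 falls of 25 (3 falls without olaparib replicate 3 or DMSO replicate 2), with the antagonist DKK1 at 1.06 opposite to TCF7.

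IFIT2, an antiviral RNA-binding protein, had 44.6, 46.5 and 49.6 CPM in knockdown cells given olaparib, against 30.2, 28.2 and 28.7 CPM in those given DMSO. In control cells the levels were 2.70, 3.15 and 3.12 CPM with olaparib, against 2.79, 3.85 and 4.40 CPM with DMSO. Its 6 knockdown libraries stood above its 6 control libraries. It rose with olaparib in knockdown cells by 0.69 (SE 0.079). Of 32 interferon response genes 7 rose and 7 fell with olaparib in knockdown cells, below the share of all genes in both directions. IFIT1 rose by 0.78 and IFITM1, which shares sequence with its neighbours so that its count is uncertain, by 1.79 (12.7, 15.05 and 14.2 CPM with olaparib, against 4.75, 3.87 and 3.85 CPM with DMSO), while IFI44 had 6.67, 6.16 and 5.86 CPM with olaparib, against 14.2, 9.88 and 11.7 CPM with DMSO, a log2 fold change of -0.92. DNA sensing genes gave 7 falls and 1 rise of 13 (2 rises without olaparib replicate 1 or DMSO replicate 2). TMEM173, which encodes the adaptor STING, had 9.32, 9.36 and 8.63 CPM with olaparib, against 13.5, 14.1 and 12.8 CPM with DMSO, IKBKE, a kinase of this pathway, had 4.88, 3.93 and 5.39 CPM with olaparib, against 10.1, 10.3 and 9.79 CPM with DMSO, and IRF3, its transcription factor, had 66.6, 60.6 and 56.2 CPM with olaparib, against 96.6, 93.7 and 92.6 CPM with DMSO. All 3 were lower in every olaparib library than in every DMSO library, with log2 fold changes of -0.56, -1.14 and -0.62. NF-kB targets and cytokines gave 11 rises and 5 falls of 19, with the chemokine CXCL3 at 1.11 and the inhibitor NFKBIE at -0.50.

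Smaller or mixed lists complete the account, beside 24.1% of all genes up and 23.9% down. NRF2 targets gave 7 rises and 7 falls of 24, fatty acid genes 4 and 6 of 17, lysosome and autophagy genes 6 and 3 of 29 (6 falls without olaparib replicate 1, 8 with library totals alone) and ABC transporters 2 and 5 of 19 (2 falls without olaparib replicate 2, 3 without olaparib replicate 3 or DMSO replicate 2). NFE2L2, which encodes NRF2, rose by 0.56 and the peroxiredoxin PRDX1 had a log2 fold change of -0.43. CTSL, the lysosomal protease cathepsin L, had 4945, 4578 and 4533 CPM with olaparib, against 2529, 2456 and 2313 CPM with DMSO and rose by 0.95.

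The drug response of control cells was used to ask how much of it remained after knockdown. In control cells 5676 genes changed (46.8%), 2864 up (23.6%) and 2812 down (23.2%), and 372 of them at least 2-fold (3.07%). Of these 372, 328 (88.2%) passed in the same direction in knockdown cells, 44 did not pass and 0 passed in the opposite direction, and 160 were still at least 2-fold. Of all 5676 genes, at any size, 3811 (67.1%) passed in the same direction in knockdown cells, 1813 did not pass and 52 passed in the opposite direction. Among all genes tested, 24.1% were up and 23.9% down in knockdown cells. The median size of the 372, which were chosen for their size in control cells, was 0.945 on the log2 scale in knockdown cells and 1.22 in control cells. The difference between the arms passed for 75 of them, smaller in knockdown cells for 73 and larger for 2. Of 189 large control rises (1.56%) 59 were smaller in knockdown cells by this test and 1 larger, and of 183 large falls (1.51%) 14 were smaller and 1 larger. Choosing genes by their size in knockdown cells gave other counts. Of those 293 genes 242 (82.6%) passed the same way in control cells, with a median size of 1.218 in knockdown cells and 1.064 in control cells, and the difference passed as smaller in knockdown cells for 16 and larger for 21. Among their 132 rises 16 were smaller in knockdown cells and 12 larger, and among their 161 falls 0 were smaller and 9 larger. Either choice favours the arm in which the genes were chosen. The 2 arms share no library, and across the 12118 genes their log2 fold changes had a correlation of 0.779, given as a description, since genes are not independent replicates.

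At any size, 1972 genes rose in both arms and 1839 fell in both, while 28 rose in knockdown cells and fell in control cells and 24 did the reverse. A test of the difference itself passed for 689 genes (5.69%), with 344 above 0 (2.84%) and 345 below 0 (2.85%). These counts rest on single libraries. Without knockdown olaparib replicate 1, 525 and 605 genes passed. With another library left out, the count above 0 was 160 without knockdown olaparib replicate 2, 202 without knockdown DMSO replicate 2, 204 and 164 without control DMSO replicates 1 and 2, 125 without control olaparib replicate 1 and between 125 and 160 without control olaparib replicate 2. The count below 0 was 183, 221, 167, 179 and 185 without knockdown olaparib replicate 2, knockdown DMSO replicate 2, control olaparib replicates 1 and 2 and control DMSO replicate 2. With library totals alone the counts were 553 and 241. Except where another count is given, the genes named next passed in all 20 fits of the difference that were compared.

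Of the 22 ERK feedback genes the difference passed below 0 for 8 and above 0 for 0, and of the 21 YAP and TEAD targets below 0 for 6, beside 2.85% and 2.84% of all genes below and above 0. Above 0 it passed for 2 YAP and TEAD targets, for 0 without control olaparib replicate 1 and for 1 without knockdown olaparib replicate 2 or 3, knockdown DMSO replicate 2, control olaparib replicate 2 or 3 or control DMSO replicate 2 or 3. TXNIP differed most of the genes named, with a log2 fold change of 0.79 in knockdown cells and 2.52 in control cells, where it had 55.99, 63.8 and 60.2 CPM with olaparib, against 9.12, 11.1 and 11.1 CPM with DMSO. CTGF had 1.98 against 3.04, with 1119.8, 1079 and 1196 CPM with olaparib, against 135, 137 and 140.3 CPM with DMSO in control cells. The phosphatase DUSP1 had 0.37 against 1.37, and GADD45A, a damage-induced stress protein, 0.27 against 1.30. The levels of CTGF with DMSO lay close together in both arms, whereas TXNIP stood higher with DMSO in knockdown cells. RND3, a small GTPase that relaxes actin, had 1.07 against 1.91, the co-regulator CITED4 0.54 against 2.15, NR4A2, an orphan nuclear receptor, 1.30 against 2.08 and EFNB2, a membrane-bound ligand, 1.40 against 2.09. CITED4 and GADD45A did not pass in knockdown cells (adjusted p = 0.0664 and 0.055) and passed there with DESeq2 and without olaparib replicate 3. CITED4 also passed without DMSO replicate 3 and with thinned counts, and GADD45A without a filter on low counts. ADM, the peptide adrenomedullin, had -0.37 against 0.59, and DUSP6, SPRY4, NUAK2 and CYR61 also had differences below 0.

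Among genes with a difference above 0, SCG2 had 1.47 in knockdown cells and 0.86 in control cells, and FAS 1.44 against 0.76. IFIT2 had 0.69 against -0.31, FAM72B, a member of a family of near-identical copies whose counts are uncertain, 1.27 against 0.42, and the long non-coding RNA LINC00707 0.85 against 0.10. ATAD5, which unloads the replication clamp, had 0.36 against -0.62, and FAM46A fell by 0.74 in knockdown cells against 1.39 in control cells. Of the 81 mitotic genes the difference passed above 0 for 25 and below 0 for 0. That 25 was 34 without knockdown olaparib replicate 1 and 14 without replicate 2, 10, 12, 11 and 16 without control olaparib replicates 1 and 2 and control DMSO replicates 1 and 2, and between 18 and 28 without any other library. Among those that passed throughout, TOP2A had 1.09 against 0.66, the kinetochore protein NUF2 0.68 against 0.09, the kinesins KIF15 0.64 against 0.07 and KIF23 0.55 against 0.18, and the kinases PLK4 0.58 against 0.14 and BUB1B 0.50 against 0.06.

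Repair and amino acid genes were also among those that passed throughout. POLQ had a log2 fold change of 0.73 in knockdown cells and 0.04 in control cells, where it had 31.9, 27.4 and 34.2 CPM with olaparib, against 33.99, 29.98 and 27.3 CPM with DMSO. BRCA1 had 0.32 against -0.28 and the helicase WRN 0.27 against -0.25, values of opposite sign. EME1, FANCD2 and RAD54B had 0.76, 0.59 and 0.81 in knockdown cells against 0.08, 0.06 and 0.27 in control cells. SLC7A11 had 0.59 against -0.21, with 58.3, 60.3 and 65.5 CPM with olaparib, against 72.02, 72.9 and 68.5 CPM with DMSO in control cells, and CHAC1, which degrades glutathione, 0.34 against -0.40. ASNS and PSAT1 had 0.69 and 0.42 in knockdown cells against 0.24 and -0.05 in control cells. Whole lists were also compared, whether or not the difference passed. The log2 fold change was higher in knockdown than in control cells for 22 of 26 mitotic kinases, 23 of 26 spindle genes and 27 of 29 kinetochore genes. The same held for 33 of 37 homologous recombination genes, 12 of 17 Fanconi anaemia genes and 13 of 21 ATF4 and CHOP targets. Members with the lower value in knockdown cells included HJURP (0.81 against 0.90), WEE1 (0.54 against 0.76), DDIT3 (0.96 against 1.06) and PPP1R15A (0.91 against 1.24). Other lists leaned the other way. The value was higher in knockdown cells for 3 of 22 ERK feedback genes and 3 of 21 YAP and TEAD targets. It was higher there for 3 of 16 BCL2 family genes and 0 of 11 histones. Over all 12118 genes the median difference was -0.0039, and the share of genes above 0 was not counted.

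**Figure D4:**
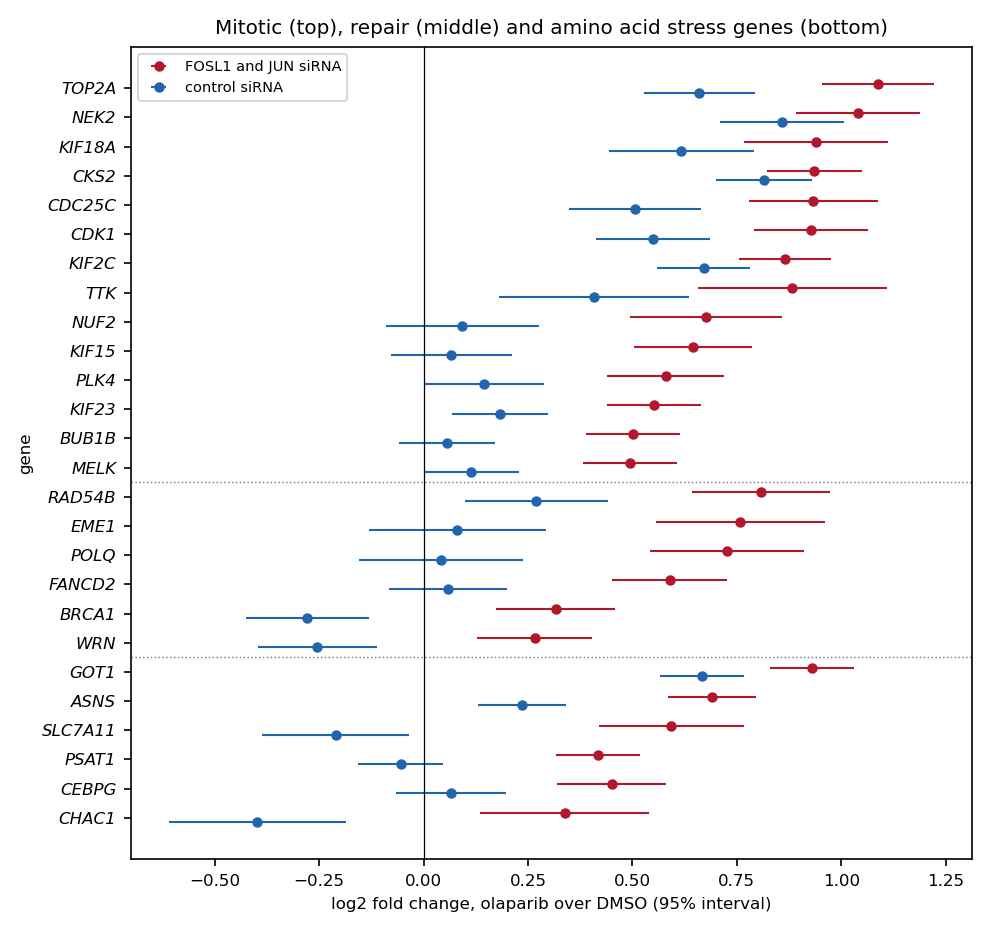
Log2 fold change of olaparib over DMSO with its 95% interval for mitotic, repair and amino acid stress genes, with knockdown cells (red) drawn above control cells (blue). These 26 genes are examples picked with their values known, and in each the red point lies to the right of the blue point. For NEK2, KIF18A, CKS2, KIF2C and TTK the difference between the arms did not pass in the main fit. For CDC25C, CDK1, GOT1 and CEBPG it was lost when single libraries were left out. The whole lists, given in the text, are less uniform, and for BRCA1, WRN, SLC7A11 and CHAC1 the 2 arms lie on opposite sides of 0.

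**Figure D5:**
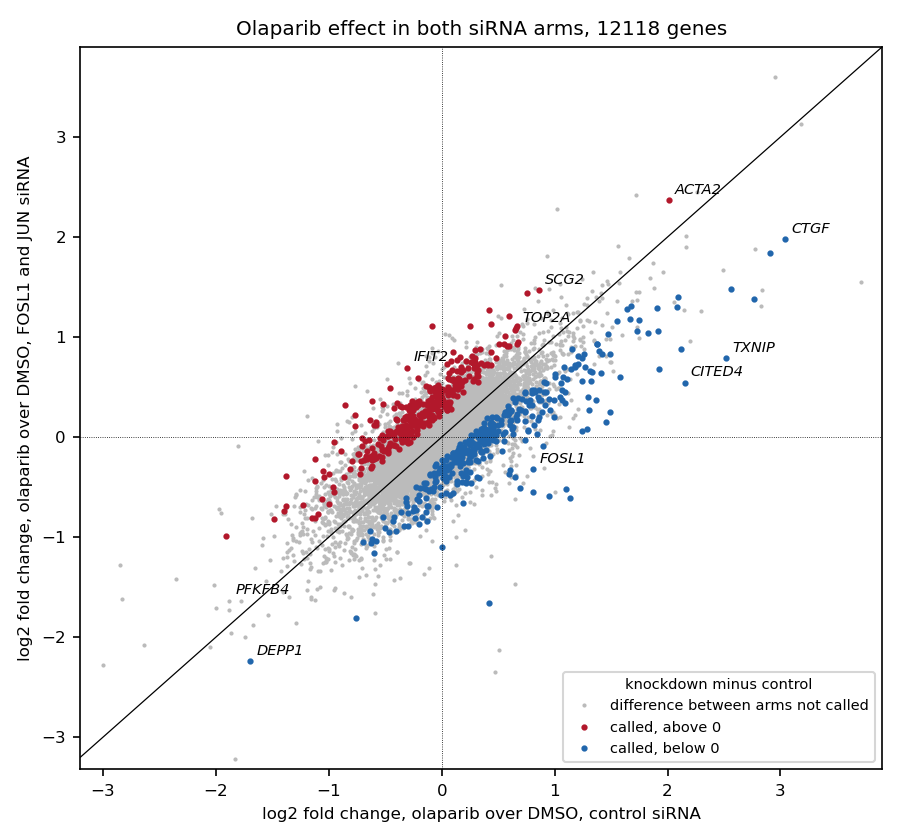
Log2 fold change of olaparib over DMSO in knockdown cells (vertical) against control cells (horizontal) for 12118 genes, with the line of equal change and, in colour, the 344 genes above it and 345 below it for which the difference between the arms passed. TXNIP, CTGF and CITED4 lie below the line on the right and SCG2, TOP2A and IFIT2 above it.

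Promoter windows were also compared between the sets called. CHR elements were in 21.5% of the 149 windows of genes up at least 2-fold in knockdown cells, in 9.66% of the 145 windows of genes down at least 2-fold and in 19.8% of the 363 windows of genes with a difference above 0, against 10.2% of all 14330 windows. The AP-1 site TGANTCA was in 6.51% of the 415 windows of genes with a difference below 0 and in 3.03% of those above 0, against 4.17% of all.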

How the data were processed

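RNA of 12 BT549 libraries in 4 groups of 3 had been sequenced. Per the submitters' processing notes, base calls came from bcl2fastq 2.20.0.422. Raw counts for each gene and library, as deposited by the authors, were used here, beside their deposited table of log2 fold changes with false discovery rates, adjusted p-values from the authors' own tests, per the file headers. Aligner, counting program, use of strand and genome build are not given in the sources used here. Other, rescaled tables were not used, and 0 columns of values could not be assigned to a library.

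The table held 27046 genes, among them 51 rows without a symbol (0.00223 to 0.00311% of counts), which were left out. Genes over 1 CPM in at least 3 libraries were kept. Libraries held 13763179 to 39715900 counts. One edgeR 4.0.16 quasi-likelihood fit (R 4.3.3, TMM factors, 4 group means, 8 residual degrees of freedom) gave each contrast, Benjamini-Hochberg adjusted over 12118 genes with a threshold of 0.05. CPM values are TMM-scaled. The biological coefficient of variation was 6.1%. The pipeline was tested on simulated data.

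Alternatives were RLE factors, library totals, DESeq2 1.42.0, other filters, the arm's libraries alone, thinning, a replicate block and each library left out. Named genes were both siRNA targets, the 12 largest rises and falls, the 8 largest differences between arms and control responses each way, at a mean log2 CPM of at least 3, and up to 6 members per list. For the 12 rises and falls and the control responses, the olaparib and DMSO libraries also had to show no overlap. BRCA1, BRCA2, BUB1B, CDKN1A, CEBPG, DUSP6, JUND, KIF15, KIF23, LDHA, MCM2, MCM3, MCM4, MCM5, MCM7, MDM2, MELK, MKI67, NUAK2, NUF2, PARP1, PARP2, PDK1, PLK4, VIM and WRN were chosen after their values were seen. The genes and lists were chosen with earlier results of these data known. Promoter windows come from RefSeq (GRCh38.p14).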

Additional observations from a re-analysis of the deposited data

Results flagged for a closer look

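The olaparib effect differed between the siRNA arms in edgeR's quasi-likelihood test of the difference itself for the named genes that follow, given as the log2 fold change in knockdown cells minus that in control cells. Below 0, and past the threshold in every alternative run, were TXNIP (-1.73), CITED4 (-1.61), FOSL1 (-1.14), CTGF (-1.06), GADD45A (-1.03), DUSP1 (-0.999), ADM (-0.96), RND3 (-0.85), NR4A2 (-0.78), NUAK2 (-0.75), EFNB2 (-0.69), NPC1 (-0.67), DUSP6 (-0.57), AEN (-0.52), BCL6 (-0.49), SPRY4 (-0.45), VIM (-0.41), MYC (-0.39), HMGCS1 (-0.39), CYR61 (-0.37) and DUSP4 (-0.36). Their adjusted p-values with all libraries lay between 1.14e-07 and 0.0153. Above 0, likewise in every alternative, were IFIT2 (1.001), ATAD5 (0.98), FAM72B (0.85), SLC7A11 (0.80), LINC00707 (0.75), CHAC1 (0.74), EME1 (0.68), FAS (0.68), POLQ (0.68), FAM46A (0.65), SCG2 (0.61), BRCA1 (0.59), NUF2 (0.58), KIF15 (0.58), RAD54B (0.54), FANCD2 (0.53), WRN (0.52), PSAT1 (0.47), EIF5 (0.46), ASNS (0.45), BUB1B (0.44), TOP2A (0.43), PLK4 (0.43), MELK (0.38), KIF23 (0.37), HSP90AA1 (0.35) and CTSL (0.27), with adjusted p-values between 0.00011 and 0.0147. FAM46A and EIF5 had log2 fold changes below 0 in both arms, nearer to 0 in knockdown cells.

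The other named differences passed with all 12 libraries and were lost when single libraries were left out. ACTA2 had a difference of 0.36 (adjusted p = 0.0302), lost when any 1 of knockdown olaparib replicates 2 and 3, knockdown DMSO replicate 2, control olaparib replicates 1 and 2 and control DMSO replicates 2 and 3 was left out (adjusted p 0.0554 to 0.0988). ALDOC had a difference of -0.30 (adjusted p = 0.0221), lost when any 1 of knockdown olaparib replicate 2, control olaparib replicates 1 and 2 and control DMSO replicate 2 was left out (adjusted p 0.0519 to 0.0779). CDC25C had a difference of 0.43 (adjusted p = 0.0219), lost when any 1 of knockdown olaparib replicate 2, control olaparib replicates 1 and 3 and control DMSO replicate 1 was left out (adjusted p 0.0527 to 0.0731). CDK1 had a difference of 0.38 (adjusted p = 0.021), lost when any 1 of knockdown DMSO replicate 2, control olaparib replicates 1 and 2 and control DMSO replicates 1 and 2 was left out (adjusted p 0.0502 to 0.0763). CEBPG had a difference of 0.38 (adjusted p = 0.0152), lost when any 1 of control olaparib replicate 1 and control DMSO replicate 2 was left out (adjusted p 0.0558 to 0.0577). CENPE had a difference of 0.88 (adjusted p = 0.0287), lost when any 1 of knockdown olaparib replicate 2, knockdown DMSO replicates 2 and 3, control olaparib replicates 1 and 2 and control DMSO replicate 1 was left out (adjusted p 0.0519 to 0.0882) and under 2 other alternatives.

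DEPP1 had a difference of -0.55 (adjusted p = 0.0146), lost when any 1 of knockdown olaparib replicate 2 and control olaparib replicate 2 was left out (adjusted p 0.0536 to 0.0689) and under 1 other alternative. FANCL had a difference of 0.68 (adjusted p = 0.0254), lost when any 1 of knockdown olaparib replicate 2, knockdown DMSO replicate 2, control olaparib replicates 1 and 2 and control DMSO replicate 2 was left out (adjusted p 0.0551 to 0.0932) and under 1 other alternative. GOT1 had a difference of 0.26 (adjusted p = 0.0275), lost when any 1 of knockdown olaparib replicate 2, knockdown DMSO replicate 2, control olaparib replicates 1, 2 and 3 and control DMSO replicate 1 was left out (adjusted p 0.0576 to 0.0936). JUN had a difference of -0.57 (adjusted p = 0.0268), lost when any 1 of knockdown olaparib replicate 2, knockdown DMSO replicate 2, control olaparib replicates 1, 2 and 3 and control DMSO replicates 1 and 3 was left out (adjusted p 0.051 to 0.0794) and under 2 other alternatives. PARP2 had a difference of 0.35 (adjusted p = 0.0215), lost when any 1 of control olaparib replicates 1, 2 and 3 and control DMSO replicate 1 was left out (adjusted p 0.0508 to 0.0572). RRM2 had a difference of 0.29 (adjusted p = 0.036), lost when any 1 of knockdown olaparib replicate 2, knockdown DMSO replicates 1 and 2, control olaparib replicates 1, 2 and 3 and control DMSO replicate 1 was left out (adjusted p 0.0555 to 0.112).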

How the results depend on the processing

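The counts of genes called in knockdown cells stayed within 1.5 times their value in every alternative run, with 1 exception: without a filter on low counts 285 genes were down at least 2-fold, in place of 161. With 1 library left out, 2437 to 2934 genes rose and 2329 to 2923 fell, 127 to 148 rose and 143 to 204 fell at least 2-fold, and 294 to 354 of the large control responses kept their call. DESeq2 gave 2773 rises and 2598 falls. The difference between arms was the least stable count, at 125 to 525 genes above 0 and 167 to 605 below 0 with 1 library left out, and at 553 above 0 with library totals alone. In control cells library totals gave 1884 rises in place of 2864. Library totals moved the log2 fold changes by -0.053 in knockdown cells and by -0.1 in control cells, as given above. The cause of the other shifts was not tested. Deviations of same-numbered olaparib and DMSO libraries had correlations of -0.2695, 0.0858 and -0.0744 in knockdown cells and 0.1075, -0.1006 and 0.0535 in control cells. Differently numbered libraries had -0.1945 to 0.2448 in knockdown cells and -0.1462 to 0.0996 in control cells. Libraries were not paired by number in the main fit. With 3 libraries per group these values cannot settle whether the numbers pair the samples. With the replicate number as a block, 2858 genes rose and 2836 fell, and the difference passed for 303 genes above 0 and 306 below. The differences of JUN and CENPE did not pass with that block (adjusted p = 0.0595 and 0.0786), nor without a filter on low counts (adjusted p = 0.0547 and 0.071). The call in knockdown cells was kept in all 20 alternatives for 197 of the 205 genes named in the text, changed in at least 1 for 8, and reversed for 0. The authors' deposited table lists 12106 genes, with 2949 called up and 2984 down in knockdown cells, and of 12088 genes shared with it 5763 were called by both in the same direction. Genes at or below 1 CPM in 10 or more of the 12 libraries were not tested, and 3 libraries per group from 1 cell line limit every test here.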

Other observations

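Several list members with large responses in knockdown cells were not described above. ADAMTS6, a matrix protease, had 15.9, 15.9 and 15.2 CPM with olaparib, against 6.56, 5.97 and 7.11 CPM with DMSO, and ID4, an inhibitor of differentiation, had 27.7, 21.6 and 23.1 CPM with olaparib, against 7.82, 8.56 and 13.2 CPM with DMSO. They rose by 1.25 and 1.24 on the log2 scale, and by 1.19 and 1.11 in control cells. ERCC6, which acts in transcription-coupled repair, had 114, 126 and 127 CPM with olaparib, against 69.5, 74.5 and 66.3 CPM with DMSO and rose by 0.80. ITGB3, an integrin chain, had 2.96, 3.38 and 3.57 CPM with olaparib, against 1.68, 1.37 and 1.82 CPM with DMSO, and WNT7B, a Wnt ligand close to the filter, had 2.47, 2.63 and 1.35 CPM with olaparib, against 0.558, 0.734 and 0.790 CPM with DMSO. Among the falls, MXD4, a repressor that opposes MYC, had 22.5, 21.6 and 18.2 CPM with olaparib, against 31.6, 38.8 and 39.2 CPM with DMSO. TREX1, which degrades cytosolic DNA, had 5.50, 6.56 and 6.27 CPM with olaparib, against 8.52, 11.2 and 10.5 CPM with DMSO. The treatments did not overlap in any of these genes.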
